A study of Mus musculus with 15 samples.

Results

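The effect of a cardiac Acsl1 knockout on gene expression was compared between an early and a late time, to describe which genes gained, lost or kept the effect. The effect at a time is the mean of the knockout hearts minus the mean of the control hearts, in log2 units. The change of the effect is the effect at 10 weeks minus the effect at 2 weeks after tamoxifen, an interaction over 4 groups. All 15 arrays of the series entered it, and it was computed for all 19532 genes with a symbol.

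Acsl1 encodes a long-chain acyl-CoA synthetase, which joins fatty acids to coenzyme A so that they can be oxidised, and the adult heart draws most of its energy from that oxidation. When fatty acid use is limited, hearts take up more glucose, and the kinase complex mTORC1, which couples nutrients to protein synthesis and growth, can become more active. Downstream of mTORC1 and of mitochondrial or amino acid stress stands ATF4, a transcription factor that raises genes of amino acid synthesis, folate-bound one-carbon transfer and tRNA charging. PPARα, a nuclear receptor that fatty acids activate, raises genes of fatty acid uptake, oxidation and disposal. A heart under load also returns to fetal forms of its contractile proteins, such as Myh7, the slow β-myosin heavy chain.

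The groups were Acsl1flox/flox control hearts and Acsl1H-/- knockout hearts at 2 weeks (4 controls, 3 knockouts) and at 10 weeks (4 controls, 4 knockouts), labelled as biological replicates. All were ventricles of male C57Bl/J6 mice, the controls being littermates that bear the flox alleles. Every mouse, control or knockout, had received tamoxifen at 75 mg/kg on 4 days when 6 to 8 weeks old, so age and time since tamoxifen moved together. Tamoxifen starts the deletion in the knockout line, and the labels do not give the promoter of its recombinase. No group carried the recombinase without the deletion, so effects of the recombinase and of the deletion cannot be told apart. Each array set heart RNA, labelled with Cy5, against one reference RNA from whole neonatal mice of mixed 129Sv and C57BL/6 strain, labelled with Cy3.

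A value is the log2 ratio of heart to reference, centred so that the median of each probe over the 15 arrays was 0. It carries no expression level, so the heart origin of the RNA could not be checked with marker genes and levels of different genes could not be compared. Neither the base of the logarithm nor which channel was the numerator is recorded. Base 2 and heart over reference are likely from the dyes and the range of values, and with the opposite sign each rise below would be a fall. In bulk tissue fewer cells of a type and less RNA per cell cannot be told apart. Acsl1 itself was not analysed here. Correlations between arrays ran from -0.058 to 0.14. The centring of each probe removes the profile that all arrays share, so these low values do not show how alike the arrays were. The array of control 2 weeks replicate 1 stood apart in its atrial and conduction markers, whose mean was 1.14 there and -0.18 to 0.27 on the other 3 controls of that time. Control 10 weeks replicate 2 did so in mesothelial and epicardial markers, at 0.83 against -0.11 to 0.15 on the other 3 late controls. A pair of control spots, AT_nX_3 and AT_nX_5, read 6.12 to 8.40 on all 7 knockout arrays and -0.38 to 0 on all 8 control arrays. Their knockout effects were 8.40 and 6.84 at 2 weeks and 8.11 and 6.59 at 10 weeks. The sources used here do not say which molecule these spots detect. The spots separate the arrays fully by genotype, and their relation to the knockout effects of the genes was not tested.

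More genes were called for the knockout effect late than early. At an adjusted p under 0.05 (limma, Benjamini-Hochberg over 19532 genes) the 10-week comparison called 134 genes (0.686% of all), 70 higher and 64 lower in knockouts, against 1 gene (0.00512%) at 2 weeks. At an unadjusted p under 0.05 the counts were closer, with 1945 genes (9.96%) at 10 weeks and 1417 (7.25%) at 2 weeks. The median standard error of an effect was 0.23 at 2 weeks and 0.21 at 10 weeks. Over all genes the median size of the effect was 0.17 at 2 weeks and 0.16 at 10 weeks, and it was larger late in 9590 of 19532 genes. Over the 134 genes, which were chosen by their late effect, the median size was 0.18 at 2 weeks and 0.93 at 10 weeks.

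For the change of the effect itself, limma called 0 of 19532 genes, and the lowest adjusted p was 0.0901, held by Gsta2 and Tbxa2r. At an unadjusted p under 0.05 there were 1331 genes (6.81%), 671 with a higher and 660 with a lower effect at 10 weeks. The median standard error of the change was 0.31, larger than that of either effect, since 4 group means enter it. No gene-wise statement below on the change passes an adjusted threshold, and verbs of change refer to the 10-week comparison. One probe did pass when probes were tested singly. That probe of Fgf21 differed between the effects by 3.81 (adjusted p = 1.10e-05 over 32664 probes).

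The 134 genes called at 10 weeks were divided by their early effect. The effect was termed gained where the change had the same sign as the late effect with an unadjusted p under 0.05, which held for 110 genes, 61 higher and 49 lower. It was termed kept where the early effect had the same sign with an unadjusted p under 0.05 and the change did not reach that p, which held for 19 genes, 8 higher and 11 lower. The other 5 met neither rule. Choice of genes by their late effect favours gain, since the same arrays enter the change, so these counts describe the 134 genes and test nothing. The early and late effects share no array, and 112 of the 134 genes (83.6%) had the same sign at both times, against 52.8% of all genes. Of the 134, 35 also reached an unadjusted p under 0.05 at 2 weeks with that sign.

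The time course within each genotype was described for the gained genes. Expression between 2 and 10 weeks differed within knockouts for 76 genes (0.389%), 41 of them among the 110 gained genes. Within controls the same test called 0 genes, with 815 (4.17%) at an unadjusted p under 0.05 in limma. For the 61 genes that gained upwards the median time difference was 0.81 in knockouts and -0.020 in controls. For the 49 that gained downwards it was -0.66 in knockouts and 0.022 in controls. The arrays that chose the gained genes also enter these time differences, and choice by the late knockouts favours a large difference in knockouts. These values and the count of 41 are therefore a description.

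**Figure D1:**
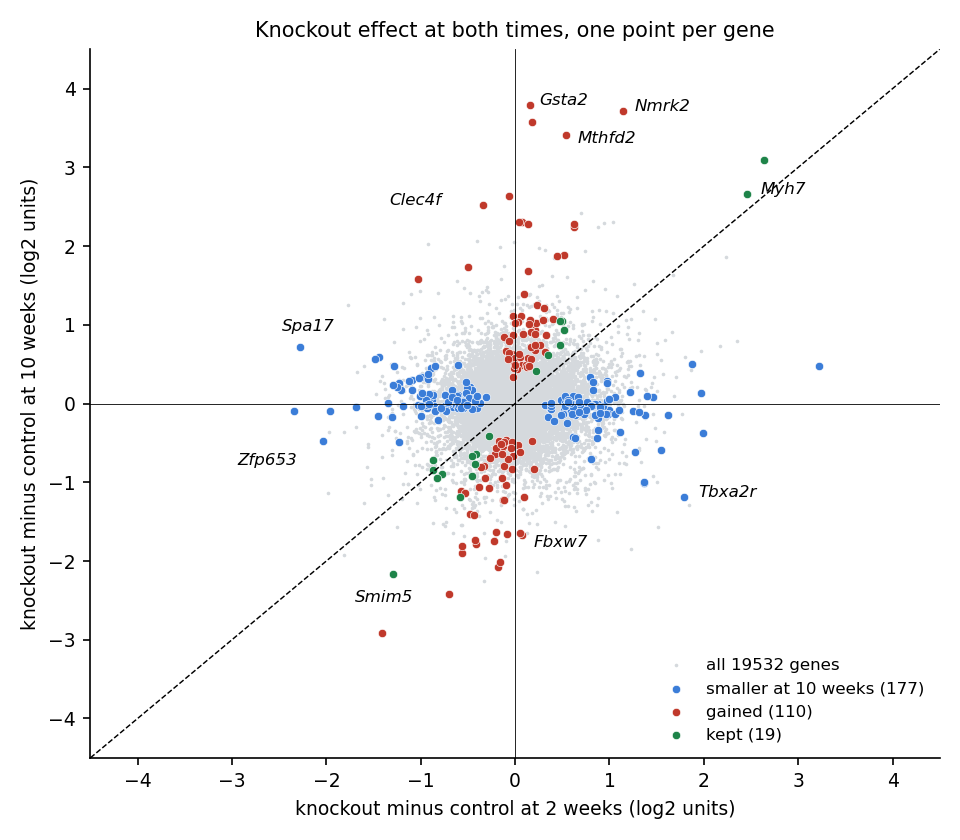
Each point is a gene, with its knockout effect at 2 weeks on the horizontal axis and at 10 weeks on the vertical axis, both in log2 units, and the dashed line marks equal effects. The 110 gained genes lie nearer the vertical axis, the 177 genes with a smaller late effect nearer the horizontal axis, and Myh7 close to the dashed line.

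The glutathione transferases Gsta2 and Gsta1 and the nicotinamide riboside kinase gene Nmrk2 rose late, with smaller effects early, while most other members of their lists were not called. Gsta2, a glutathione transferase that couples glutathione to reactive lipids and drugs, read 3.25, 3.77, 3.25 and 3.93 in the 4 late knockouts and -0.65, 0.87, -0.39 and -0.80 in the late controls. In the early hearts it read 0.17, -0.078 and -0.65 in knockouts and -0.66, 0, 0.12 and -0.84 in controls. The 4 late knockouts stood above all 11 other arrays, and the early groups overlapped. Over all genes, knockouts lay wholly above controls for 4.26% of genes at 2 weeks and 3.24% at 10 weeks, and wholly below for 4.52% and 3.36%. Its effect was 0.16 ± 0.38 (± SE) at 2 weeks and 3.79 ± 0.35 at 10 weeks (adjusted p = 3.55e-04), a change of 3.63 with a 95% interval of 2.51 to 4.76.

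Gsta1, a close relative, had an effect of 0.18 ± 0.45 at 2 weeks and 3.58 ± 0.41 at 10 weeks (adjusted p = 0.00134). The sequences of these transferases are nearly identical, so their probes may read each other's transcript. Of the 47 measured antioxidant and glutathione genes, 3 rose at 10 weeks and 0 fell, beside 0.358% and 0.328% of all genes called higher and lower. Their median effect was -0.022 at 2 weeks and 0.14 at 10 weeks. The third was Gpx4, a peroxidase that reduces lipid peroxides, with an effect of 0.46 ± 0.082 (adjusted p = 0.0235), a call lost without knockout 10 weeks replicates 1, 2 or 4 or control 10 weeks replicates 2, 3 or 4. The change of the effect lay above 0 for 33 of the 47 genes, against 51.1% of all genes. It reached an unadjusted p under 0.05 upwards for 10 and downwards for 3 of them, beside 3.44% and 3.38% of all genes. Mgst2, a membrane-bound glutathione transferase, was one with a smaller late effect, -1.09 ± 0.30 at 2 weeks and 0.30 ± 0.28 at 10 weeks.

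Nmrk2, the muscle kinase that makes NAD from nicotinamide riboside, read 4.03, 3.70, 2.66 and 3.77 in late knockouts against -0.42, 0, -0.24 and -0.052 in late controls. The early knockouts read -0.41, 0.79 and 0.53 and the early controls -1.59, 0.12, -0.51 and -1.38, so the early groups overlapped. The effect was 1.14 ± 0.42 at 2 weeks (unadjusted p = 0.018) and 3.72 ± 0.39 at 10 weeks (adjusted p = 6.60e-04). In the list of NAD synthesis and sirtuin genes Nmrk2 was the 1 gene of 20 that was called at 10 weeks, beside 0.686% of all genes. The median effect of the list was -0.027 at 10 weeks. Adssl1, the muscle enzyme that makes adenylosuccinate on the way to AMP, had knockouts above controls at both times, at -0.0026 to 0.11 against -0.30 to -0.033 early and 0.82 to 0.98 against -0.14 to 0.052 late. Its effect was 0.21 ± 0.094 at 2 weeks and 0.93 ± 0.087 at 10 weeks (adjusted p = 3.55e-04).

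**Figure D2:**
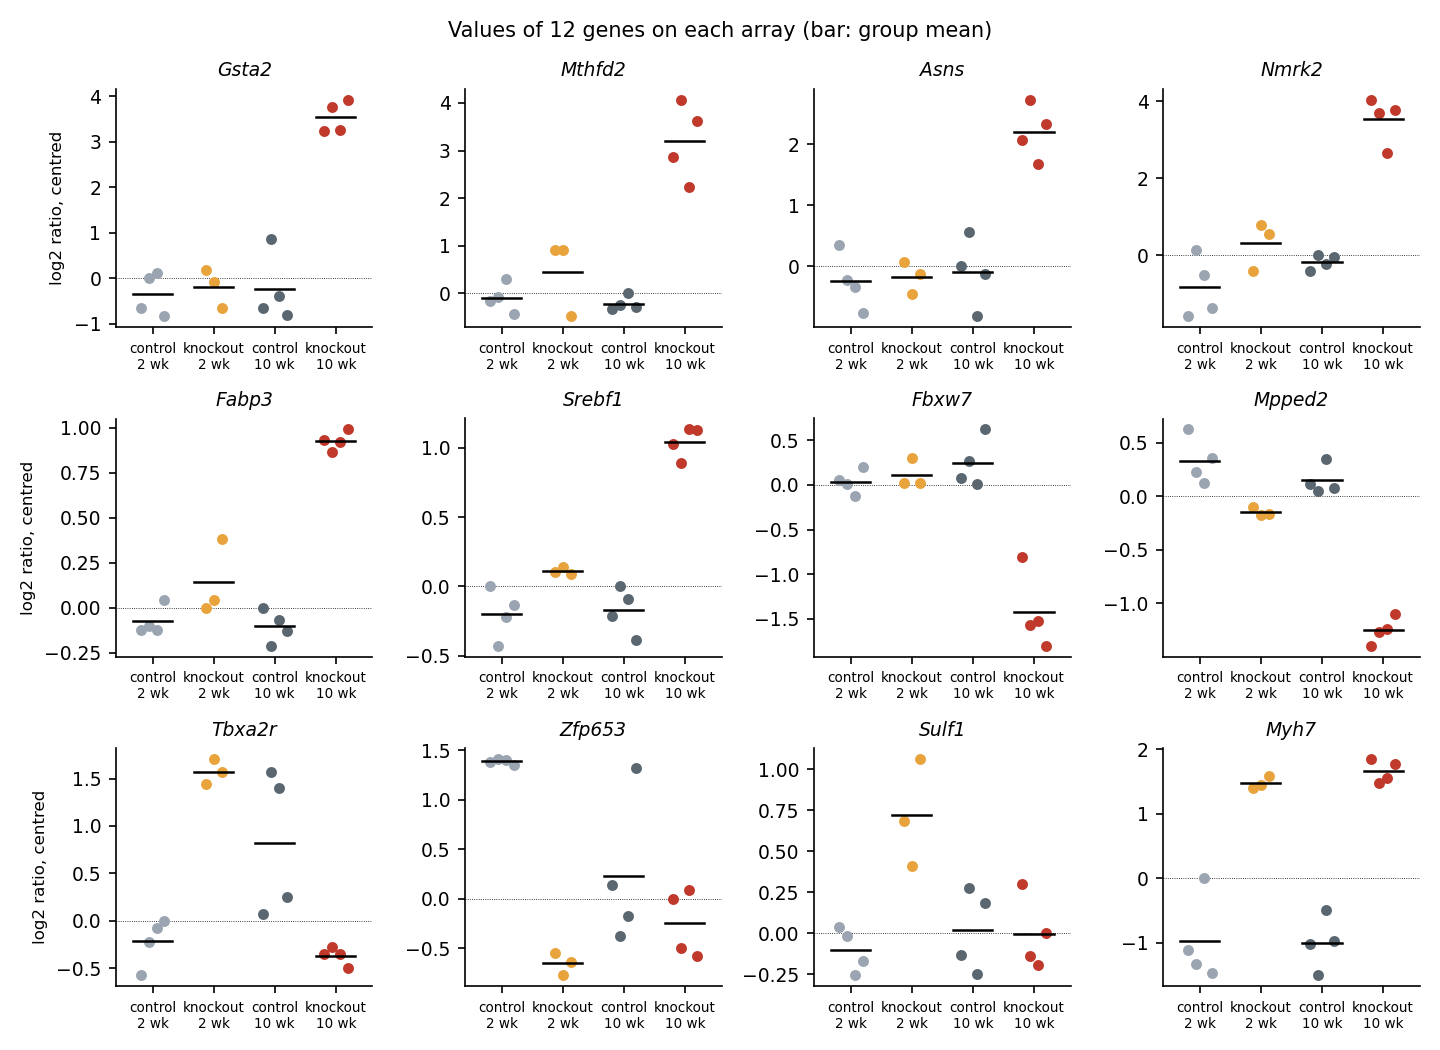
The centred log2 ratio of 12 genes is shown for every array, with points for arrays and bars for group means. In the first 6 panels the 4 late knockouts lie above every other array, in Fbxw7 and Mpped2 below, and in Myh7 the knockouts of both times lie above all controls.

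Genes that ATF4 and mTORC1 raise, for amino acid synthesis, one-carbon transfer and stress, included 8 that were called late and none that was called early. Of 38 measured, 7 rose and 1 fell at 10 weeks, beside 0.358% and 0.328% of all genes, and 30 did not pass. At 2 weeks limma called 0, and 2 reached an unadjusted p under 0.05 in each direction, beside 3.62% and 3.63% of all genes. The median effect over the list was -0.026 at 2 weeks and 0.35 at 10 weeks, beside -0.022 and -0.018 over all genes. The change lay above 0 for 29 of 38, against 51.1% of all genes. It reached an unadjusted p under 0.05 upwards for 10 and downwards for 0, beside 3.44% and 3.38% of all genes. Averaged over the list, the late knockouts read 0.40, 0.68, 0.39 and 0.39, above the late controls at -0.22, -0.11, 0.028 and -0.11. The early knockouts read -0.20, 0.052 and -0.13 and overlapped the early controls at -0.021, -0.12, -0.0070 and -0.17.

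Mthfd2, the mitochondrial enzyme that oxidises folate-bound one-carbon units, read 2.87, 4.07, 2.24 and 3.61 in late knockouts and -0.33, -0.25, 0 and -0.28 in late controls. Early knockouts read 0.91, 0.92 and -0.48, 2 of 3 above all early controls (-0.17, -0.071, 0.30 and -0.44). The effect was 0.54 ± 0.41 at 2 weeks and 3.41 ± 0.38 at 10 weeks (adjusted p = 9.51e-04), a change of 2.87 with an interval of 1.67 to 4.07. Asns, which makes asparagine, had an effect of 0.076 ± 0.33 at 2 weeks and 2.30 ± 0.30 at 10 weeks (adjusted p = 0.00344), with late knockouts at 2.06, 2.72, 1.68 and 2.33 and all 11 other arrays at -0.82 to 0.56.

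Atf5, a transcription factor of the same stress response, had knockouts above controls at both times, and its effect was 0.23 ± 0.17 early and 1.25 ± 0.16 late (adjusted p = 0.00295). Chac1, which degrades glutathione, read -1.20, -1.07 and -1.02 in early knockouts and 0.21, -0.80, -0.60 and -1.18 in early controls. Of the early knockouts 1 lay below all early controls, while the late knockouts, at 1.90, 2.10, 1.43 and 1.97, lay above every other array. The late call of Chac1 (adjusted p = 0.0162) was lost without knockout 10 weeks replicates 2 or 4, or control 10 weeks replicates 1 or 4. Atf3, a stress-induced factor, had a late effect of 2.64 ± 0.52, a call lost without knockout 10 weeks replicates 1, 2, 3 or 4, or control 10 weeks replicates 2, 3 or 4, or control 2 weeks replicates 2 or 4. Trib3, a pseudokinase that curbs insulin signalling, had 1.68 ± 0.34, lost without knockout 10 weeks replicates 1, 2, 3 or 4, or control 10 weeks replicates 1, 2 or 3, or knockout 2 weeks replicate 1, or control 2 weeks replicates 1, 2 or 4. The change of Trib3 was 1.54, and ran from 1.52 to 3.40 over the alternatives that kept all arrays, so its size depended on the processing. The 1 listed gene that fell was Eif4ebp1, the translation inhibitor 4E-BP1, and it belonged to the kept genes.

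Fgf21 encodes a hormone that stressed muscle and liver secrete. Its probe A_52_P235347 read 4.02, 4.25, 3.83 and 4.07 in late knockouts against -0.24, -0.0075, -0.12 and -0.40 in late controls. In early hearts that probe read 0.29, 0.59 and 0 in knockouts and -0.40 to 0.047 in controls, a small difference of 0.42. By the other probe late knockouts read -0.30, -0.25, 1.77 and 1.47, overlapping late controls at -0.28 to 1.59. The effect at 10 weeks was 4.24 by the first probe, 0.32 by the other and 2.28 ± 0.27 by their mean (adjusted p = 0.00134). The size of the gain in Fgf21 thus rested on 1 probe.

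The promoters of 4 of these 7 genes that rose hold the letters TGATGNAAN, the pattern of the amino acid response element that ATF4 binds with C/EBP factors. They are printed from RefSeq (GRCm38.p6), 5′ to 3′ on the strand of the gene, to show the matches, with the match on either strand in capitals. These 4 were chosen because they hold a match, so that they share it is no result. The matches begin 23 to 194 bases before the annotated start. The stretches are chr1:191183406-191183474 (minus strand) for Atf3, chr2:119351018-119351086 (plus strand) for Chac1, chr6:7693210-7693262 (minus strand) for Asns and chr7:45615592-45615660 (minus strand) for Fgf21.
Atf3: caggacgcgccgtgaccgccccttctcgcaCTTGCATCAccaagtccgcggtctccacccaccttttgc
Chac1: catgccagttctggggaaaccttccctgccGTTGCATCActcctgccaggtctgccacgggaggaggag
Asns: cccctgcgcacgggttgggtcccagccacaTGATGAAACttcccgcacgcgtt
Fgf21: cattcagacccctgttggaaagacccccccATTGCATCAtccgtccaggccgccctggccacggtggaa
Within 250 bases before the start, on either strand, the letters occurred in 8 of the 32 listed genes with a RefSeq promoter (25%), and in 496 of 15594 genes of the array (3.18%). The list was made of genes that ATF4 raises, so its share does not bear on which genes changed. Among all genes that gained upwards they occurred in 5 of 50 (10%), and among those that gained downwards in 2 of 41 (4.88%). The 4 printed genes are among these 5, so that share is not a separate observation. The windows of Atf5, Mthfd2 and Trib3 held no match. Overlap with other motifs was not counted, and a match of letters does not show that a factor binds. In the same windows, on either strand, an exact copy of the PPAR response element (DR1) consensus occurred in 0 of 35 fatty acid genes (0.0641% of all), the NRF2 pattern TGACNNNGC in 10 of 40 antioxidant genes (25%, against 12.8%), and the hypoxia pattern ACGTG in 15 of 19 hypoxia genes (78.9%, against 21.3%). These lists too were made of genes with a known function or response, so their shares do not bear on which genes changed. An exact copy as rare as 0.0641% makes 0 of 35 uninformative.

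Enzymes that load amino acids onto tRNAs had a similar course in their medians. Of 19 cytosolic aminoacyl-tRNA synthetases 2 rose and 0 fell at 10 weeks, beside 0.358% and 0.328% of all genes. The median effect was 0.020 at 2 weeks and 0.39 at 10 weeks. The change lay above 0 for 15 of the 19, against 51.1% of all genes. It reached an unadjusted p under 0.05 upwards for 5 and downwards for 2, beside 3.44% and 3.38% of all genes. Sars, for serine, read 0.54, 0.61, 0.31 and 0.45 in late knockouts and -0.28 to 0.070 on the other 11 arrays, with an effect of 0.042 ± 0.10 early and 0.63 ± 0.089 late (adjusted p = 0.00564). The other was Lars, for leucine, at 0.60 ± 0.12 (adjusted p = 0.0355), a call lost without knockout 10 weeks replicates 1, 2 or 4, or control 10 weeks replicates 1, 2, 3 or 4, or control 2 weeks replicates 1 or 4. On array knockout 10 weeks replicate 1 the mean over the synthetases was 0.043, close to the highest late control at -0.0049, against 0.27 to 0.38 on the other 3 late knockouts.

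Genes of fatty acid handling under PPARα also had a larger median effect late than early. Of 44 measured, 7 rose and 1 fell at 10 weeks, beside 0.358% and 0.328% of all genes. The change reached an unadjusted p under 0.05 upwards for 19 and downwards for 1, beside 3.44% and 3.38% of all genes. It lay above 0 for 36 of the 44, against 51.1% of all genes, and the median effect was 0.046 at 2 weeks and 0.28 at 10 weeks. The mean over the list was 0.25, 0.31, 0.31 and 0.31 in late knockouts and -0.19, -0.11, -0.15 and -0.11 in late controls. In early knockouts it was -0.025, 0.071 and -0.060, within the early controls at -0.018, -0.19, -0.18 and 0.063 for 2 of the 3 arrays.

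Fabp3, which carries fatty acids through the heart muscle cell, read 0.93, 0.86, 0.92 and 0.99 in late knockouts and -0.0016, -0.21, -0.066 and -0.13 in late controls. Early knockouts read 0, 0.043 and 0.38, and the lower 2 lay within the range of early controls, -0.12 to 0.045. The effect was 0.22 ± 0.11 at 2 weeks and 1.03 ± 0.10 at 10 weeks (adjusted p = 3.55e-04). Acot2, a thioesterase that frees fatty acids from coenzyme A in mitochondria, had an early effect of 0.52 ± 0.20 (unadjusted p = 0.0241) and a late effect of 1.89 ± 0.19 (adjusted p = 4.34e-04). Its cytosolic relative Acot1 had 0.10 ± 0.17 early and 1.39 ± 0.16 late (adjusted p = 0.00107), with late controls at -0.63 to -0.36 below the early controls at -0.25 to 0.52. Acot1 and Acot2 are near-identical in sequence, so their probes may not be separate measurements.

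The gate of fatty acids into mitochondria, Cpt1b, read 0.31 to 0.51 in late knockouts against -0.28 to 0.0070 in late controls, an effect of 0.58 ± 0.090 (adjusted p = 0.0114) after 0.14 ± 0.10 at 2 weeks. Pdk4, the kinase that shuts off pyruvate dehydrogenase, read 1.66, 1.68, 1.44 and 1.59 in late knockouts and -1.42, -0.63, 0.29 and -0.97 in late controls, with an effect of 2.28 ± 0.34 (adjusted p = 0.00868). Its early effect was 0.63 ± 0.37, with early knockouts at 0.12, -0.087 and 0 inside the range of early controls, -1.30 to 0.24. Dbi, the acyl-CoA binding protein, lay outside the list and rose late by 0.67 ± 0.10 (adjusted p = 0.00711) from -0.10 ± 0.11 at 2 weeks.

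The receptor gene itself fell late. Ppara read -0.57, -0.83, -0.59 and -1.05 in late knockouts and 0.13, 0, 0.51 and 0.11 in late controls, and its effect was -0.13 ± 0.17 at 2 weeks and -0.95 ± 0.16 at 10 weeks (adjusted p = 0.0162). That call was lost without knockout 10 weeks replicates 2 or 4. Ehhadh, a peroxisomal oxidation enzyme, did not pass at 10 weeks (0.60 ± 0.17, adjusted p = 0.161), and its change of 0.87 had an interval of 0.34 to 1.40.

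Genes of lipid synthesis included a few called members. Srebf1, the transcription factor that drives fatty acid synthesis, had knockouts above controls at both times, with 0.10, 0.14 and 0.086 against 0, -0.43, -0.22 and -0.14 early and 1.03, 0.89, 1.13 and 1.13 against -0.21, -0.00017, -0.089 and -0.39 late. Its effect was 0.31 ± 0.12 at 2 weeks (unadjusted p = 0.0251) and 1.22 ± 0.11 at 10 weeks (adjusted p = 3.55e-04), a change of 0.91 with an interval of 0.55 to 1.27. Of the 31 sterol and fatty acid synthesis genes 3 rose late and 0 fell, beside 0.358% and 0.328% of all genes. The median effect was -0.0065 early and 0.076 late. The other 2 were Insig1, which retains SREBP in the endoplasmic reticulum (1.02 ± 0.19), and Scd2, a fatty acid desaturase (0.89 ± 0.17). Each of these 2 calls was lost without knockout 10 weeks replicates 1, 2 or 4, or without control 10 weeks replicates 1, 3 or 4, and that of Insig1 also without control 10 weeks replicate 2. The change of Insig1 was 1.02, and ran from 0.96 to 1.99 over the alternatives that kept all arrays.

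Among 32 genes of triacylglycerol and lipid droplets, 2 rose and 1 fell late, beside 0.358% and 0.328% of all genes. Agpat3, which acylates lysophosphatidic acid, had a late effect of 0.50 ± 0.077 (adjusted p = 0.0107) and an early one of 0.078 ± 0.083. Cidea, a lipid droplet protein, had 0.69 ± 0.12 (adjusted p = 0.0249), lost without knockout 10 weeks replicates 1, 2 or 4, or control 10 weeks replicates 1, 2 or 3. Cidec, a droplet protein of fat cells, differed by -0.99 ± 0.40 at 2 weeks and 0.39 ± 0.37 at 10 weeks, and Plin1, a droplet coat of fat cells, by -0.39 ± 0.28 and 0.50 ± 0.26, none of which passed. The 13 adipocyte markers, of which Cidea was the 1 called, had a median effect of -0.22 early and 0.056 late, and the mean of the list was highest on control 2 weeks replicate 1, at 0.33. The median change of the list was 0.38, 0.36 without that array and 0.19 without knockout 2 weeks replicate 3, and the part of fat cells in the lipid results was not tested.

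Most genes of the cytosolic ribosome and the proteasome had a small change above 0. Of 51 cytosolic ribosomal protein genes, 46 had a change above 0, against 51.1% of all genes. An unadjusted p under 0.05 was reached upwards by 14 and downwards by 0, beside 3.44% and 3.38% of all genes. That upward count was 24 without knockout 2 weeks replicate 3, and 6 without replicate 1 or replicate 2 of that group or by the most variable probe per gene. It was 7 to 9 without knockout 10 weeks replicates 1, 2 or 4, control 10 weeks replicates 1, 2 or 4, or control 2 weeks replicates 1 or 2. Their median effect was 0.0032 at 2 weeks and 0.19 at 10 weeks. At 10 weeks 1 member, Rps2, was called (0.49 ± 0.10, adjusted p = 0.0476), beside 0.358% of all genes called higher. That call was lost without knockout 10 weeks replicates 1, 2, 3 or 4, or control 10 weeks replicates 1, 2, 3 or 4, or knockout 2 weeks replicates 1 or 2, or control 2 weeks replicates 1, 2, 3 or 4. The mean over the list was 0.20, 0.13, 0.055 and 0.16 in late knockouts and -0.085, -0.10, 0.014 and -0.081 in late controls, which did not overlap, and -0.10, -0.058 and 0.15 in early knockouts. Rps10 had opposite effects, -0.21 ± 0.10 at 2 weeks and 0.32 ± 0.089 at 10 weeks, each with an unadjusted p under 0.05. Outside the list, Rpl22l1, a relative of ribosomal protein L22, rose by 0.79 ± 0.11 late (adjusted p = 0.00558) and read 0.82, 0.95, 0.43 and 0.73 in late knockouts against -0.16 to 0.069 on all other arrays.

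Of 34 proteasome genes, 29 had a change above 0, against 51.1% of all genes. At 10 weeks 2 rose and 0 fell, beside 0.358% and 0.328% of all genes. The median effect of the list was 0.0070 early and 0.11 late. Psmb10, a catalytic subunit of the immunoproteasome, had knockouts above controls at both times, with 0.32 ± 0.091 at 2 weeks (unadjusted p = 0.00407) and 0.66 ± 0.084 at 10 weeks (adjusted p = 0.00295). Among 18 mitochondrial chaperones and proteases 1 rose late, beside 0.358% of all genes. It was Hspe1, the partner of Hsp60, at 0.44 ± 0.076 (adjusted p = 0.0191). The call of Hspe1 was lost without knockout 10 weeks replicates 1 or 4, or control 10 weeks replicates 1 or 4. Hspd1, Hsp60 itself, differed by 0.38 ± 0.11 and did not pass (adjusted p = 0.17). Among 31 autophagy and lysosome genes the change lay above 0 for 14, against 51.1% of all genes, with a median of -0.021. Among 24 chaperones of the endoplasmic reticulum it lay above 0 for 9, and for 14 without control 2 weeks replicate 2, with a median of -0.040.

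Hif1a rose late, while the list of hypoxia response genes had a median below 0. Hif1a, the subunit that hypoxia stabilises, read 0.72, 0.70, 0.86 and 1.26 in late knockouts and -0.21, -0.20, 0 and -0.19 in late controls, while the early groups overlapped. Its effect was 0.033 ± 0.18 at 2 weeks and 1.03 ± 0.17 at 10 weeks (adjusted p = 0.0147). The list of 23 hypoxia response genes, which includes Hif1a, had a median effect of 0.0020 early and -0.30 late. The change lay above 0 for 7 of 23, against 51.1% of all genes. No other member was called in either direction. At 10 weeks 3 genes, Hif1a among them, reached an unadjusted p under 0.05 upwards and 5 downwards, beside 4.75% and 5.21% of all genes. Averaged over the list, the group means were -0.014 in early controls, -0.023 in early knockouts, 0.15 in late controls and -0.082 in late knockouts. The median difference between times was 0.15 in controls and -0.21 in knockouts, so the controls moved too. Egln1, the hydroxylase that marks HIF for degradation, differed by -0.48 ± 0.15 late (adjusted p = 0.204) and 0.00094 ± 0.16 early.

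Glycolysis genes had a median effect of -0.014 at 2 weeks and -0.10 at 10 weeks over 31 members. Late, 1 of them fell, beside 0.328% of all genes. That gene was Ldha, lactate dehydrogenase A, at -0.54 ± 0.10 (adjusted p = 0.0278), a call lost without knockout 10 weeks replicates 1, 2 or 4, or control 10 weeks replicates 1, 2 or 4. The change reached an unadjusted p under 0.05 downwards for 4 and upwards for 0, beside 3.38% and 3.44% of all genes. Pgam1, phosphoglycerate mutase, had an effect of 0.55 ± 0.17 at 2 weeks and -0.24 ± 0.16 at 10 weeks. Slc2a3, a glucose transporter, showed 0.39 ± 0.12 and 0.0078 ± 0.11, and Slc2a1, the transporter common to most tissues, 0.10 ± 0.11 and -0.43 ± 0.10. None of these 3 passed at either time.

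**Figure D3:**
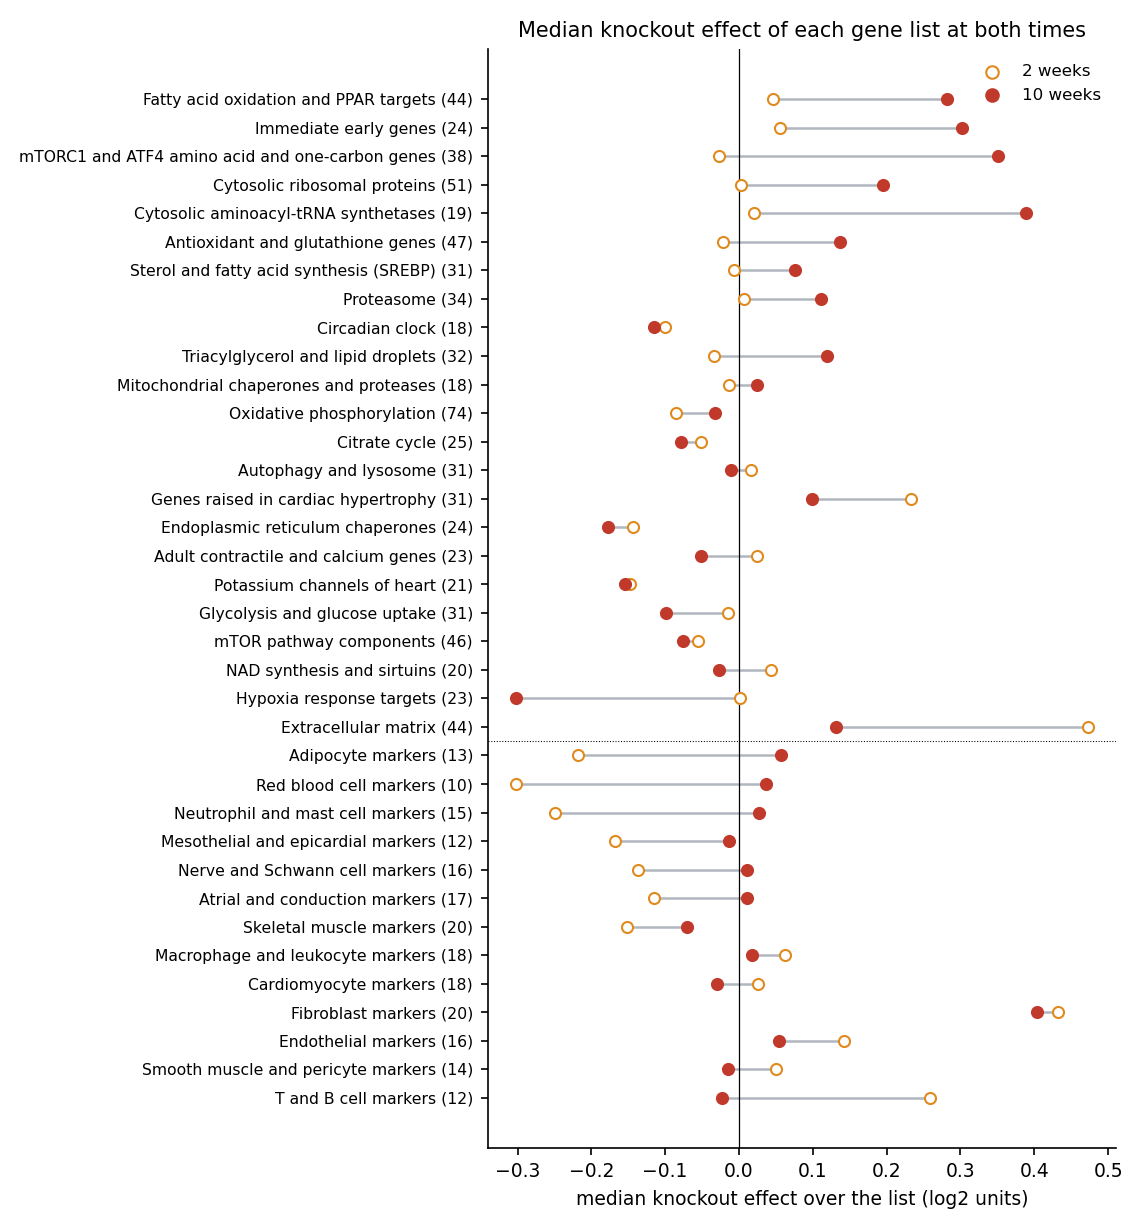
Open circles give the median knockout effect of each gene list at 2 weeks and filled circles at 10 weeks, in log2 units, with the number of measured genes in brackets and cell markers below the dotted line. Fatty acid, ATF4 and tRNA synthetase lists move right with time, hypoxia targets and extracellular matrix move left, and fibroblast markers stay near 0.40.

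Among the genes that fell late, several had a smaller early effect of the same sign. Mpped2, a metallophosphoesterase, had knockouts below controls at both times, reading -0.10, -0.17 and -0.16 against 0.63, 0.22, 0.13 and 0.36 early and -1.39, -1.27, -1.24 and -1.10 against 0.12, 0.053, 0.35 and 0.083 late. Its effect was -0.48 ± 0.13 at 2 weeks (unadjusted p = 0.00201) and -1.40 ± 0.12 at 10 weeks (adjusted p = 3.46e-04), and its 2 probes gave changes of -0.94 and -0.91. Smim5, a small membrane protein, had -0.70 ± 0.26 early and -2.42 ± 0.24 late (adjusted p = 4.34e-04), with late knockouts at -1.84, -2.66, -2.58 and -3.02.

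Fbxw7, which picks targets such as Myc and cyclin E for a ubiquitin ligase, read -0.81, -1.57, -1.52 and -1.80 in late knockouts, while all 11 other arrays lay at -0.13 to 0.62. Replicate 1 lay well above the other 3 late knockouts. The effect was 0.073 ± 0.21 early and -1.67 ± 0.19 late (adjusted p = 0.00134), and its probes gave changes of -0.73 and -2.76. Without that replicate the change of Fbxw7 was itself called (adjusted p = 0.0214), the 1 gene called in that fit. Tppp, which promotes the assembly of tubulin, had a late effect of -2.02 ± 0.28 (adjusted p = 0.00499) after -0.16 ± 0.30 at 2 weeks.

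Potassium channels had a median effect of -0.15 early and -0.15 late over 21 genes, 2 of which fell late, beside 0.328% of all genes. Kcnj12, an inward rectifier of the heart, had knockouts below controls at both times, with -0.53 ± 0.17 at 2 weeks (unadjusted p = 0.00911) and -1.13 ± 0.16 at 10 weeks (adjusted p = 0.00584). The other, Kcnq1, had -0.71 ± 0.15 late (adjusted p = 0.0481), a call lost without any 1 of the 15 arrays. Kcnd2, of the transient outward current, had -0.93 ± 0.24 at 2 weeks and -0.054 ± 0.22 at 10 weeks. Among 46 mTOR pathway components 0 rose and 2 fell late, beside 0.358% and 0.328% of all genes. The median effect was -0.056 early and -0.076 late. Sesn1, a sestrin that restrains mTORC1, had 0.053 ± 0.34 early and -1.64 ± 0.31 late (adjusted p = 0.0317), a call lost without knockout 10 weeks replicates 2, 3 or 4, or control 10 weeks replicates 1, 2, 3 or 4. The change of Sesn1 was -1.69, and ran from -3.36 to -1.65 over the alternatives that kept all arrays, so its size depended on the processing.

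The genes with the smallest p for the change, apart from those above, are given with their values although none passed. Clec4f, a lectin known from the macrophages of liver, read 3.22, 3.06, 1.69 and 2.23 in late knockouts and -0.27 to 0.56 elsewhere, and its late effect of 2.52 ± 0.30 was called (adjusted p = 0.00134). Macrophage and leukocyte markers had a median effect of 0.063 early and 0.018 late over 18 genes, 0 of them called by limma. At an unadjusted p under 0.05 there was 1, at 2 weeks, beside 7.25% of all genes. Prss22, a serine protease, had effects of opposite sign, -1.02 ± 0.31 early and 1.59 ± 0.28 late (adjusted p = 0.0235). It was the 1 gene of the 134 whose early effect had the opposite sign with an unadjusted p under 0.05, and its late call was lost without knockout 10 weeks replicates 2 or 4, or control 10 weeks replicates 1, 3 or 4.

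Tbxa2r, the thromboxane A2 receptor, had the other lowest adjusted p for the change (0.0901). It read 1.44, 1.71 and 1.57 in early knockouts and -0.57, -0.22, -0.075 and 0 in early controls, and -0.34, -0.28, -0.35 and -0.50 in late knockouts and 0.074, 1.57, 1.39 and 0.25 in late controls. Knockouts lay above all controls early and below all controls late, and the late controls were split into 2 low and 2 high arrays. The effect was 1.79 ± 0.31 at 2 weeks and -1.19 ± 0.29 at 10 weeks, neither called (adjusted p = 0.16 and 0.0931). Its change of -2.98 (interval -3.89 to -2.07) was called without control 10 weeks replicate 1, 2 or 4.

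In all, 53 genes (0.271%) had effects of opposite sign with an unadjusted p under 0.05 at both times, 22 of them higher late, against 173 genes (0.886%) with the same sign. Dusp27, a muscle protein related to phosphatases, had 0.74 ± 0.27 early and -1.07 ± 0.25 late, with knockouts all above the controls early and all below late. Gadd45a, induced by growth arrest and DNA damage, had -0.39 ± 0.13 early and 0.43 ± 0.12 late, below all controls early and above all late. Tenm2, a teneurin adhesion protein, had -0.44 ± 0.17 and 0.68 ± 0.16. None of these 3 passed over all genes at either time. The probes of 2 further genes disagreed: Wrap73 gave changes of -2.76 and 0.68, and Nosip, a nitric oxide synthase interacting protein, -3.17 and 0.23.

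**Figure D4:**
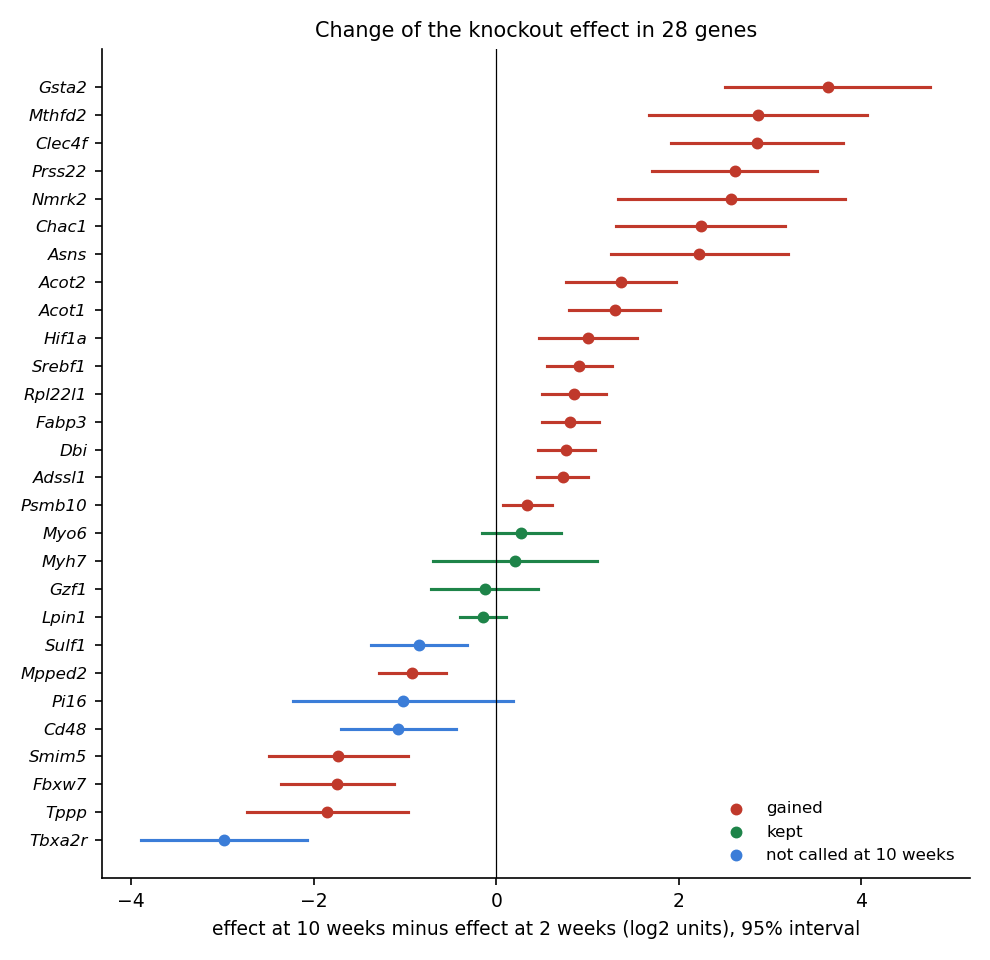
Points give the change of the knockout effect, 10 weeks minus 2 weeks in log2 units, for 28 genes, with bars for the 95% interval, coloured by class. Of the genes drawn, Gsta2 and Tbxa2r have the intervals farthest from 0, and those of the kept genes Myo6, Myh7, Gzf1 and Lpin1 include 0.

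Effects seen early that were smaller late were counted by a rule of an unadjusted p under 0.01 at 2 weeks with a change in the opposite direction at an unadjusted p under 0.05. It held for 177 genes (0.906%), 88 higher and 89 lower in early knockouts, and 117 of them had the opposite sign at 10 weeks. The early effect chose these genes, so their return towards 0 is a description. Apart from Myh7, which kept its effect, no early effect passed over all genes with a symbol. Of the 8465 probes without a symbol, 3 were called at 2 weeks and 37 at 10 weeks when all 41174 probes were tested. Their lowest adjusted p was 3.18e-07 at 2 weeks and 6.87e-08 at 10 weeks (limma).

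Zfp653, a zinc finger repressor, read -0.54, -0.77 and -0.64 in early knockouts and 1.38, 1.41, 1.40 and 1.35 in early controls. Late knockouts read 0, -0.50, 0.084 and -0.57 and overlapped the late controls, 0.14, -0.37, -0.18 and 1.32, 3 of which lay far below the early controls. The effect was -2.04 ± 0.31 early and -0.48 ± 0.29 late. In this gene the controls differed between times by -1.16 and the knockouts by 0.40, neither called. Cd48, a surface protein of leukocytes, read 1.43, 1.41 and 0.79 in early knockouts against -0.14 to 0.075 in early controls, an effect of 1.22 ± 0.21, and 0.14 ± 0.20 late. Pip5k1c, a kinase that makes phosphatidylinositol bisphosphate, had -0.91 ± 0.16 early and -0.011 ± 0.15 late. Apbb1ip, an adaptor for Rap1 in leukocytes and platelets, had 0.97 ± 0.17 and 0.28 ± 0.16.

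Extracellular matrix genes had a median effect that was larger early than late. Of 44 extracellular matrix genes, 19 were higher at an unadjusted p under 0.05 at 2 weeks and 0 lower, beside 3.62% and 3.63% of all genes, and at 10 weeks 3 were higher and 0 lower, beside 4.75% and 5.21%. None was called by limma at either time. The median effect was 0.47 early and 0.13 late. The change lay above 0 for 6 of 44, against 51.1% of all genes, with 4 at an unadjusted p under 0.05 downwards, beside 3.38%. The mean over the list was 0.20, 0.49 and 0.93 in early knockouts and 0.31, 0.020, -0.14 and -0.27 in early controls, which overlapped. In late knockouts it was 0.21, 0.050, -0.17 and -0.022 and in late controls -0.087, -0.0070, -0.19 and -0.23.

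The early difference varied among the 3 early knockouts. The median change of the matrix list was -0.20 without knockout 2 weeks replicate 3, -0.52 without replicate 1 and -0.43 without control 2 weeks replicate 1. The number of its genes with a change above 0 was 16 without knockout 2 weeks replicate 3 and 3 without replicate 1. It was 4 without control 2 weeks replicate 1 or knockout 10 weeks replicates 1 or 2. The downward count at an unadjusted p under 0.05 was 8 without knockout 2 weeks replicate 1, and 3 to 5 without any 1 other array. Sulf1, which trims sulfates from heparan chains, read 0.68, 0.41 and 1.06 in early knockouts and 0.039, -0.016, -0.26 and -0.17 in early controls, an effect of 0.82 ± 0.18 early and -0.027 ± 0.16 late. Col8a1, a short-chain collagen, had 1.05 ± 0.23 and 0.079 ± 0.22. Ccn2, a matricellular growth factor, had 0.51 ± 0.18 early and -0.28 ± 0.17 late, and its difference between times within knockouts was -1.26 (adjusted p = 0.00993), 1 of the 76 genes called for time in knockouts.

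Fibroblast markers had similar medians early and late. The median effect over 20 markers was 0.43 at 2 weeks and 0.40 at 10 weeks. At an unadjusted p under 0.05, 7 of them were higher early and 5 late, beside 3.62% and 4.75% of all genes. At either time 0 were lower at that p and 0 were called. Their mean was 0.20, 0.45 and 0.86 in early knockouts, 0.36, -0.035, -0.32 and -0.30 in early controls, 0.40, 0.15, -0.015 and 0.082 in late knockouts and -0.21, 0.0057, -0.49 and -0.31 in late controls. The same arrays, knockout 2 weeks replicate 3 and control 2 weeks replicate 1, were high for matrix and for fibroblast markers, and the part of fibroblast numbers in the matrix genes was not tested. Endothelial markers also lay higher in early knockouts: their mean was 0.13, 0.12 and 0.19 there and 0.078, 0.081, 0.0035 and -0.086 in early controls, which did not overlap. Over 16 of them the median effect was 0.14 early and 0.054 late, 0 were called by limma, 1 was higher at an unadjusted p under 0.05 at 2 weeks and 0 at 10 weeks, and their part in the matrix results was not tested. Fibroblast markers differed in course: Pi16, a marker of resting fibroblasts, had 1.24 ± 0.41 early and 0.22 ± 0.38 late, Meox1, a factor of activated fibroblasts, 1.97 ± 0.59 and 0.13 ± 0.55, and Fap, a protease of activated fibroblasts, -0.19 ± 0.20 and 0.46 ± 0.19. The median change of the fibroblast list, -0.056, ran from -0.19 to 0.13 over the alternatives.

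**Figure D5:**
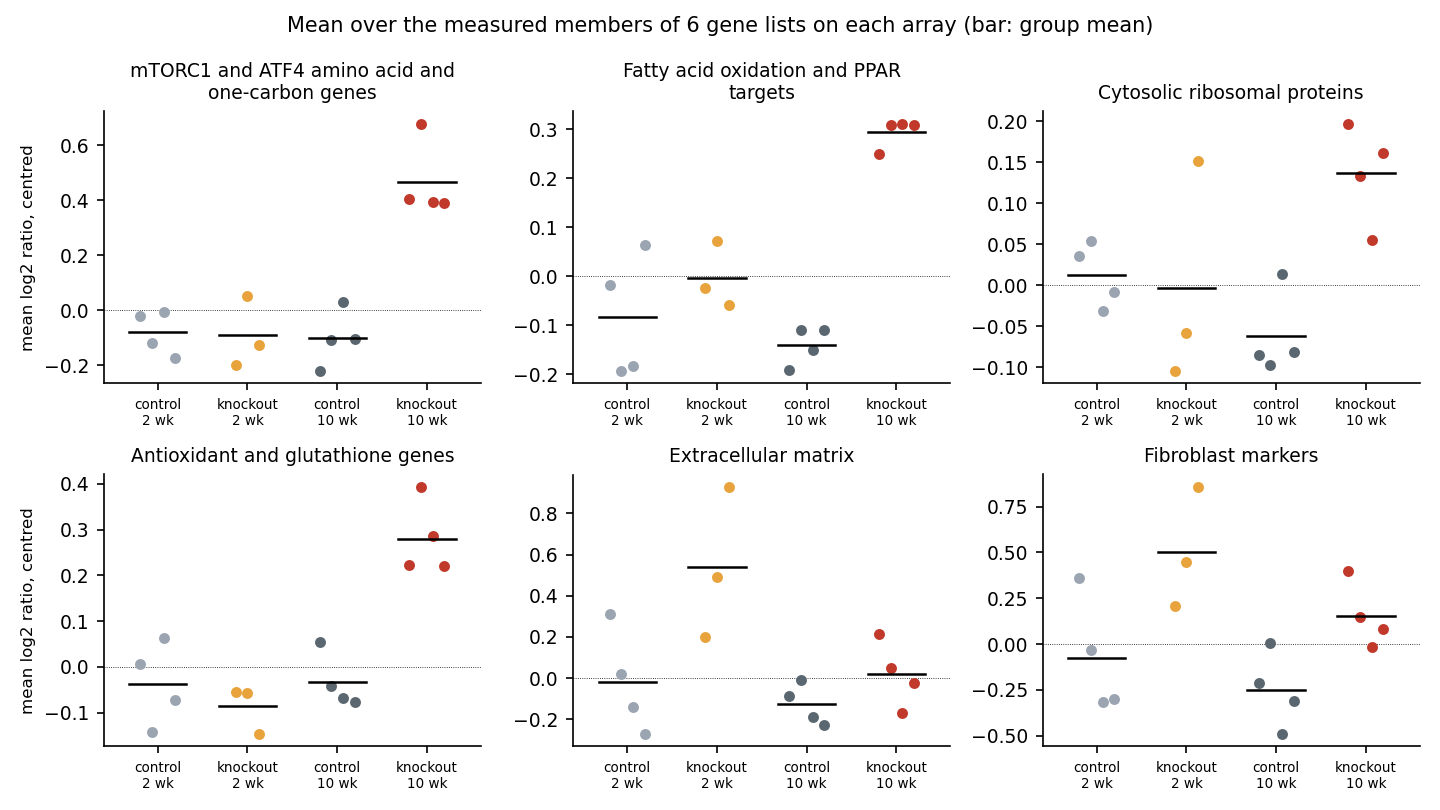
Points give the mean centred log2 ratio over each of 6 gene lists on every array, with bars for group means. The 4 late knockouts lie above all controls in the upper row and in the antioxidant list, while the early knockouts are spread most widely in the matrix and fibroblast lists.

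Kept effects were led by Myh7, whose early and late effects were nearly equal. It read 1.40, 1.45 and 1.59 in early knockouts, -1.11, -1.33, 0 and -1.48 in early controls, 1.85, 1.48, 1.55 and 1.78 in late knockouts and -1.02, -1.51, -0.49 and -0.98 in late controls. All 7 knockouts lay above all 8 controls. The effect was 2.46 ± 0.31 at 2 weeks (adjusted p = 0.0393) and 2.66 ± 0.28 at 10 weeks (adjusted p = 6.60e-04), and the change was 0.21 with an interval of -0.69 to 1.11.

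The other genes raised in hypertrophy did not share 1 course. Over 31 genes the median effect was 0.23 at 2 weeks and 0.10 at 10 weeks. At an unadjusted p under 0.05, 7 were higher and 1 lower early, beside 3.62% and 3.63% of all genes. Late, 9 were higher and 1 lower, beside 4.75% and 5.21%. The list mean was 0.23 to 0.47 in late knockouts and -0.15 to -0.017 in late controls. In early knockouts it was 0.039 to 0.50, overlapping early controls at -0.36 to 0.12. By limma 4 rose late, beside 0.358% of all genes. Of these Myh7 was kept and 3, with Nmrk2 and Atf3 among them, were gained. Nppa, atrial natriuretic peptide, had 1.28 ± 0.30 early and 0.61 ± 0.28 late (adjusted p = 0.366 and 0.493). In early hearts the control with the highest Nppa, 0.40, was replicate 1, the array with high atrial markers.

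Of the 19 kept genes, Myh7 was the 1 whose late call held without any 1 array. The other 18 were each lost without at least 1 array. Eif4ebp1 had -0.87 ± 0.16 at 2 weeks and -0.72 ± 0.14 at 10 weeks (adjusted p = 0.04), a change of 0.16 with an interval of -0.30 to 0.61. Tbx5, a transcription factor of the atria and left ventricle, had -0.87 ± 0.18 and -0.85 ± 0.17, and a change of 0.017 (-0.51 to 0.55). Gzf1, a zinc finger repressor, had -0.83 ± 0.20 and -0.95 ± 0.18. Lpin1, which makes diacylglycerol and also acts on PPARα targets, had -0.27 ± 0.086 and -0.41 ± 0.079, with an interval of -0.40 to 0.11.

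C4bp-ps1, a pseudogene of the complement regulator C4b-binding protein, had the largest kept effect by size, 2.64 ± 0.59 at 2 weeks and 3.09 ± 0.54 at 10 weeks, with a wide interval of -1.28 to 2.17. Its knockouts lay above all controls at each time, although the late control replicate 1 at 0.96 lay above 2 early knockouts. Myo6, an actin motor, had 0.47 ± 0.15 and 0.75 ± 0.14, and Plk2, a kinase of the stress response, 0.52 ± 0.18 and 0.93 ± 0.16. Cyp1a1, the enzyme that the aryl hydrocarbon receptor induces, had -1.29 ± 0.44 and -2.17 ± 0.41, and its interval of -2.18 to 0.43 does not separate a kept from a growing effect. Over the 8 kept genes that were higher, the median effect was 0.49 early and 0.99 late, and over the 11 that were lower -0.59 and -0.85. The effect was larger in size late in 17 of the 19 kept genes, which were chosen by their late call. Kept thus means only that the change did not reach an unadjusted p under 0.05.

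Genes of respiration and heart muscle markers had small medians at both times. Over 74 genes of oxidative phosphorylation the median effect was -0.086 at 2 weeks and -0.033 at 10 weeks. Of them 1 fell late, beside 0.328% of all genes. The change lay above 0 for 54 of the 74 (73%), against 51.1% of all genes, with a median of 0.055. The member that fell was Cox7a1, a muscle form of a cytochrome oxidase subunit, at -0.56 ± 0.10 (adjusted p = 0.0236), a call lost without knockout 10 weeks replicates 1, 2 or 4, or control 10 weeks replicates 1, 2, 3 or 4. Cox6a2, another muscle form, had -0.14 ± 0.087 early, with knockouts below all controls, and 0.35 ± 0.080 late, with knockouts above all controls (adjusted p = 0.0795). Cardiomyocyte markers had a median effect of 0.026 and -0.030 over 18 genes, 0 of them called by limma. At an unadjusted p under 0.05 there were 2, both at 10 weeks, beside 9.96% of all genes.

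Among other cell markers no T or B cell, red blood cell, neutrophil or mast cell gene was called by limma at either time. At 2 weeks 2, 0 and 0 were higher and 0, 0 and 1 lower at an unadjusted p under 0.05, beside 3.62% and 3.63% of all genes. T and B cell markers had a median effect of 0.26 at 2 weeks and -0.023 at 10 weeks over 12 genes. Their mean was 0.11, 0.31 and 0.43 in early knockouts and -0.052 to 0.074 in early controls, which did not overlap. The late groups overlapped, at -0.033 to 0.25 in knockouts and -0.044 to 0.097 in controls. Red blood cell markers had -0.30 and 0.037 over 10 genes, and neutrophil and mast cell markers -0.25 and 0.027 over 15. The immediate early genes, which respond within minutes to stimulation and to handling of tissue, had 0.056 and 0.30 over 24 genes. Late, 2 of them rose, beside 0.358% of all genes.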

How the data were processed

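RNA of mouse heart ventricles was hybridised to 15 Agilent 2-colour arrays against a common reference. The deposited value table holds log ratios that the authors made from the 2 channels, read here as log2 although the base is not recorded. Tests on the table show that each of its 41267 probes has a median of 0 over the arrays and that no value is missing. For the software, the background correction and the scaling behind the table, no source used here gives details. Of the probes, 32664 carried 1 gene symbol, 45 several and 8465 none, and 93 were control spots. Probes of one symbol were averaged to 19532 genes, 8511 of which had more than 1 probe, with no filter, since the values carry no level or detection call.

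Group means were fitted with limma 3.58.1 in R 4.3.3 over all 15 arrays (11 residual degrees of freedom). Moderated two-sided tests were made of the knockout effect at each time, of their difference and of time within each genotype. P-values were adjusted by Benjamini-Hochberg over all genes, and an adjusted p under 0.05 was called. The fit was tested on simulated data. The precision is limited by 3 or 4 arrays a group.

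The 36 gene lists, the classes and the named genes were chosen with earlier results of these data known. Of 1006 list entries, 951 were measured. Genes were named by rule: up to 10 in each direction with the smallest p for the difference, up to 4 per list, up to 12 kept, 12 smaller and 8 opposite genes, and called members of a class or list. Clone names were left out. Alternatives were quantile normalisation, median centring, other uses of the probes, robust moderation, array weights, a replicate block, a 1.5-fold minimum and leaving out each array.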

Additional observations from a re-analysis of the deposited data

Results flagged for a closer look

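The Fgf21 probe A_52_P235347 had knockout effects of 0.42 at 2 weeks and 4.24 at 10 weeks, and the difference of 3.81 passed limma's test over 32664 probes (adjusted p = 1.10e-05). A probe without a gene symbol, A_51_P305138, had effects of -0.85 at 2 weeks and 3.30 at 10 weeks, a difference of 4.15 with an interval of 3.24 to 5.06 (limma, adjusted p = 0.00538 over 41174 probes). The control spots AT_nX_3 and AT_nX_5, which enter no comparison of genes, differed between knockouts and controls by 8.24 and 6.69, and the 2 genotypes did not overlap.

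In groups of 4 arrays, 1 array stood apart from the other 3 in 19 of 288 gene groups and 7 of 108 list groups tested, and chance gives about 1 in 20. Among the controls of 2 weeks, replicate 1 stood apart in Ehhadh (-0.20), Hspe1 (-0.021), Nosip (0.048), Tenm2 (-0.072) and Tnxb (0.95). Replicate 3 of that group did so in Ldha (-0.061), and replicate 4 in Atf5 (-0.29), Fabp3 (0.045) and Gss (0.57). Among the controls of 10 weeks, replicate 1 stood apart in Atf3, at 0.057 against -1.71 to -1.44 in the other 3, and in Zfp768 (0.095). Replicate 3 of that group did so in Hif1a (0) and Kcnj12 (0.34), and replicate 4 in Agpat3 (-0.080) and Kcnq1 (0.59). Among the knockouts of 10 weeks, replicate 1 stood apart in Cd48 (0.68), Kcnq1 (-0.91) and Rps10 (0.035), and replicate 3 in Eif4ebp1 (-0.50).

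Of the list means, those of late knockouts stood apart for ATF4 genes on replicate 2 (0.68, the other 3 at 0.39 to 0.40), for fatty acid genes on replicate 1 (0.25), for the citrate cycle on replicate 1 (-0.24) and for NAD synthesis on replicate 4 (0.27). Those of late controls did so for sterol synthesis on replicate 3 (-0.12), for the proteasome on replicate 2 (-0.10) and for ribosomal proteins on replicate 3 (0.014).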

How the results depend on the processing

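No gene passed for the change of the effect under quantile normalisation, median centring, robust moderation, array weights, the replicate block or the 1.5-fold minimum. With quantile normalisation 0 genes were called at 2 weeks and 47 for time in knockouts. With the most variable probe per gene 1 was called for the change (Fgf21), 3 at 2 weeks and 89 at 10 weeks, and 9 were kept. With each probe tested alone 1 was called for the change, 5 at 2 weeks, 207 at 10 weeks and 155 for time in knockouts, and 173 were gained. With the replicate block 0 were called at 2 weeks, 71 at 10 weeks and 31 for time in knockouts, 68 were gained and 3 kept. Same-numbered arrays showed no strong shared deviation from their group means, with 1 of 21 such pairs correlating above 0.1 (-0.034 to 0.12). That cannot show whether the replicate numbers pair the arrays. Leaving out each array in turn called 0 to 4 genes for the change, 0 to 10 at 2 weeks, 61 to 142 at 10 weeks, 0 to 1 for time in controls and 41 to 89 for time in knockouts, with 56 to 116 gained and 3 to 21 kept. The 10-week count was lowest without knockout 10 weeks replicate 2, and the count for the change was highest without knockout 2 weeks replicate 1. Of the 134 genes called at 10 weeks, 45 were called without any 1 array. Of 2112 recomputed gene changes, 13 reversed, all of them in the kept genes Myo6, Tbx5, Gzf1, C4bp-ps1 and Myh7. With the most variable probe they were -0.28 for Myo6 and -0.56 for Tbx5, and with the replicate block -0.023 for Tbx5. Over left-out arrays the change ran from -0.11 to 0.15 for Tbx5, from -0.29 to 0.015 for Gzf1, from -0.15 to 0.93 for C4bp-ps1 and from -0.12 to 0.38 for Myh7. The cause was not tested. Of 36 list medians of the change, 14 turned sign under at least 1 alternative. Without intensities, signal over background is unknown.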
